A study of Mus musculus with 6 samples.

Results

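The interferon response genes considered here are 43 mouse genes that receive, transmit or carry out the response to interferons, of which 41 were measured among 18193 genes on the arrays. Members were found by their symbol in the platform annotation, and where several probe sets carried 1 symbol, the one with the highest mean intensity over the 6 arrays stood for the gene. Neither Isg15, whose probe set the annotation also assigns to Gm9706, nor Ifi44, which no probe set named, could be read. By role the measured members were 4 sensors of RNA and their regulator, 3 receptor chains, 6 transcription factors, 17 antiviral effectors, 6 of 8 effectors of protein conjugation and regulation, and 5 effectors of antigen processing. Hematopoietic stem cells (HSCs) of adult mice, sorted as lineage-negative, Sca1+, cKit+, CD150+ and CD48-, were compared between wild-type mice and mice with both PU.1 alleles knocked in (PU.1 ki/ki), on 3 arrays each. The series title names PU.1 autoregulation and HSC proliferation as its subject. The labels give neither the change carried by the knock-in allele nor the strain, the sex, the age in weeks or the number of mice behind a replicate, and the p-values therefore reflect array-to-array spread alone, which may be technical. Both groups were handled by the same sort and extraction, and no treatment is named for either.

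Interferons are secreted proteins that cells release on sensing foreign or misplaced nucleic acid. Type I interferon binds Ifnar1 and Ifnar2, type II interferon binds a receptor containing Ifngr1, and both signal through Janus kinases to STAT proteins, which with Irf9 and other interferon regulatory factors switch on the effector genes. In the bone marrow, type I interferon drives dormant HSCs into cycle, and Irf2 is known to restrain that response. Stem cells also keep a basal level of many effector transcripts without infection.

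Wild-type replicates 2 and 3 stood apart from the other 4 arrays. Of probe sets with a median of at least 512 on the other 5 arrays, 11.5% and 11.3% read at least 4-fold less on wild-type replicates 2 and 3, against 0.119 to 1.12% on the others. The upper quartile of each array's intensities was 186, 188 and 187 on PU.1 ki/ki replicates 1, 2 and 3. On wild-type replicates 1, 2 and 3 it was 180, 154 and 150. Spi1, which encodes PU.1, read 170, 212 and 161 on PU.1 ki/ki replicates 1, 2 and 3 and 158, 195 and 199 on the wild-type arrays, so its level did not separate the groups. All 10 HSC markers measured, of 12 listed, had mean intensities of at least 100, and they summed to 9943 to 12679 in PU.1 ki/ki and 7742 to 13595 in wild type. Slamf1, the CD150 of the sorting gate, read 54 and 42 on wild-type replicates 2 and 3, 440 on wild-type replicate 1 and 170 to 1525 in PU.1 ki/ki. Intensities are on a linear scale with a minimum of 10, differences are in log2, positive where PU.1 ki/ki was higher, and values of 3 arrays are given in the order of replicates 1, 2 and 3.

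Most interferon response genes read higher in PU.1 ki/ki than in wild-type HSCs, and none passed the test across all probe sets. Of 41 members 34 were higher (82.9%, against 50.6% of all genes) and 7 lower (against 47.8%). The members' median was 0.73 (lower to upper quartile 0.25 to 1.25), and that of all genes 0.01. A difference of 1 or more was found in 13 members (8.93% of all genes) and one of -1 or less in 0 (2.98%). The groups did not overlap in 11 members, all higher, which is 26.8% of them. Over all genes 6.44% were higher without overlap and 6.36% lower. In limma 0 members had an adjusted p under 0.05, as had 0% of all probe sets, and no adjusted p lay below 0.400. Without adjustment 10 members had p under 0.05, all higher, against 4.39% of all genes in that direction and 4.27% in the other. An unmoderated test per probe set gave 0 after adjustment and 8 unadjusted. Without PU.1 ki/ki replicate 1, limma's 10 became 6, and without wild-type replicate 3 the median of 0.73 became 0.46. After each array was centred on its median, which moved the median of all genes to -0.10, 31 members were higher, with Mx2, Oas1a and Psmb9 changing sign.

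**Figure D1:**
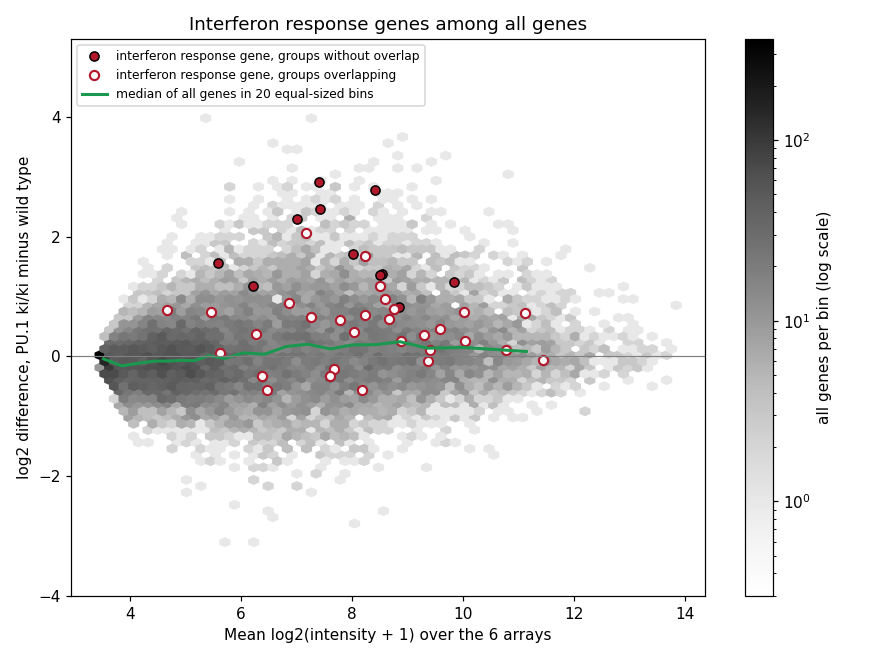
Log2 difference (PU.1 ki/ki minus wild type, vertical) against the mean log2(intensity + 1) over the 6 arrays (horizontal) for all 18193 genes, shaded by the number of genes per bin, with the 41 interferon response genes as circles, filled where the groups did not overlap, and the median of all genes in equal-sized bins as a line. The 11 filled circles lie at 0.83 to 2.90, while the line stays far below them.

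The members were brighter than most genes, with a median mean intensity of 346 against 86 for all genes, and bright genes leaned upwards in PU.1 ki/ki. In the upper quartile of intensity, 62.4% of all genes were higher, with a median difference of 0.17. The 21 members there had a median of 0.73, and 19 of them were higher. Of these 21, the groups did not overlap in 5, all higher (23.8%), against 8.91% of all genes of that brightness.

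Short promoter sequences are shown for 4 members whose groups did not overlap, a transcription factor and 3 antiviral effectors, and for Oas1a, whose groups overlapped almost fully, because each holds the element that interferon-activated factors are known to bind. The element is the core of the interferon-stimulated response element (ISRE), searched on both strands as GAAA, any 2 bases and GAAA, in the 250 bases before the RefSeq gene start, on the GRCm38.p6 build. Each sequence reads 5′ to 3′ in the direction of the gene, ends at the base before its start, and has the ISRE core matches in capitals. Gbp3 has another RefSeq start, whose window held no match.
Irf2, chr8:46739495-46739744, plus strand: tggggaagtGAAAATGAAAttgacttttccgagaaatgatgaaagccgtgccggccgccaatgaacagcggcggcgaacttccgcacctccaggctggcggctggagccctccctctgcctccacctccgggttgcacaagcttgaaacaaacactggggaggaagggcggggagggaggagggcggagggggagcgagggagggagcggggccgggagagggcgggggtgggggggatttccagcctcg
Ifit1, chr19:34640639-34640888, plus strand: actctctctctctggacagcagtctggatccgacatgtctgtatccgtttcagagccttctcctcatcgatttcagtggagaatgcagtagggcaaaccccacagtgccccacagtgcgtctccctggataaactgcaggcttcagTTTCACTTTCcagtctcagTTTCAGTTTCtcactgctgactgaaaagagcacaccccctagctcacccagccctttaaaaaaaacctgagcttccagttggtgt
Gbp3, chr3:142559794-142560043, plus strand: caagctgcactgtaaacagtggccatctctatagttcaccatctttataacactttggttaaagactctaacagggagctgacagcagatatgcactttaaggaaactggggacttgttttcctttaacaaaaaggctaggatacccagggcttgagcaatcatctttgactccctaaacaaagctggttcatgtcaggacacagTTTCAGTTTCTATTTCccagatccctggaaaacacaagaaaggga
Oas3, chr5:120777660-120777909, minus strand: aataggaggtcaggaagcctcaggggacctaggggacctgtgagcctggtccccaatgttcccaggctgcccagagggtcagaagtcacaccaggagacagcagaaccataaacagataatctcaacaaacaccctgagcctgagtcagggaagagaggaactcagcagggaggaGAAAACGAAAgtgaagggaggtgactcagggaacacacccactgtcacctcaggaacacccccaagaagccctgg
Oas1a, chr5:120907526-120907775, minus strand: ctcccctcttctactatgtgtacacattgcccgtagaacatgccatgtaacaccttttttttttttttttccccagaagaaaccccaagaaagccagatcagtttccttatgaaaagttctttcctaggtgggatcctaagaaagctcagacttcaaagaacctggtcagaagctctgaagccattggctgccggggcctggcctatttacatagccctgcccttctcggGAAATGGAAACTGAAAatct

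Windows were at hand for 35 of the 43 genes, and the others were Dhx58, Mx1, Mx2, Oas2, Usp18, Parp9, Parp14 and Tap2. The ISRE core was found in 11 of the 35 (31.4%), against 3.46% of 27018 genes with a window. By role it was in 8 of 14 antiviral effectors, 2 of 6 factors and 1 of 5 conjugation and regulatory effectors, that of Isg15. No sensor (0 of 3), receptor (0 of 3) or antigen-processing gene (0 of 4) held it. Ifit1 and Ifit3 each held 2 separate matches, and those of Gbp3, Oas1a, Bst2 and Isg15 overlapped one another. Among members whose groups did not overlap, 4 of 9 had the core, and among the other measured members 6 of 24, which are Gbp2, Ifit3, Oas1a, Rsad2, Bst2 and Stat2. The gamma-activated site, searched as TTCNNNGAA, which reads the same on both strands, was in 10 of the 35 (28.6%), against 8.13% of all genes. A composite of an ETS and an IRF site, searched on both strands as GGAA, any 2 bases and GAAA, was in Irf2, Stat2 and Ifi44 (8.57%, against 2.68%), and in the first 2 of these it overlapped the ISRE core. An ETS core of the kind PU.1 binds, GAGGAAGT on both strands, was in 0 of the 35 windows and in 2.79% of all genes. At that share few matches would be found in 35 windows. Among 41 further interferon-stimulated genes with a window, from a list compared below, the ETS core was in 4 (9.76%) and the composite in 8 (19.5%). Each match is a match of letters in this window and was not tested for binding.

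**Figure D2:**
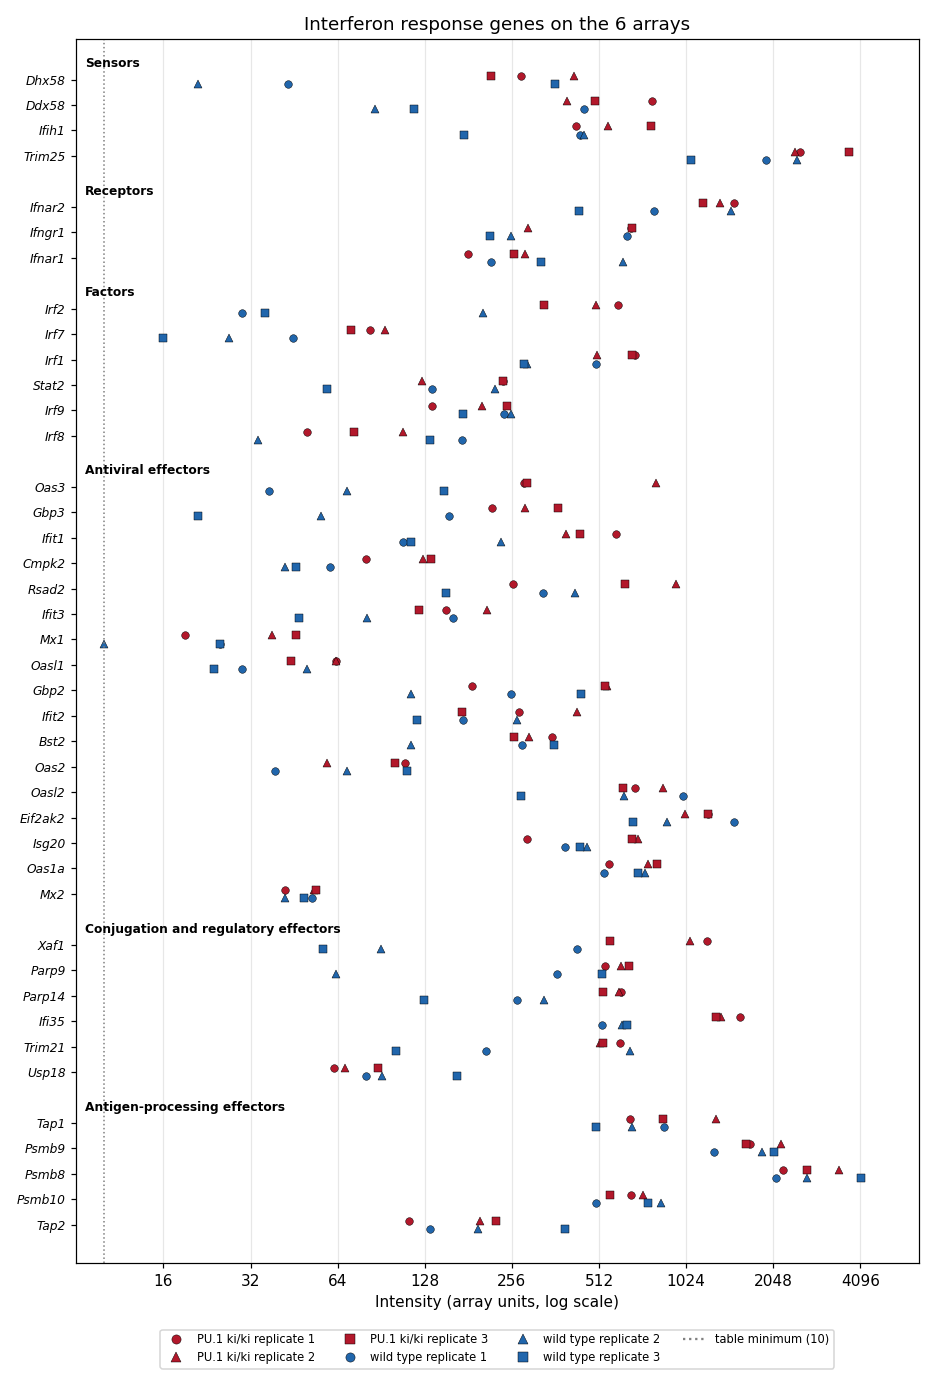
Intensity of the 41 measured interferon response genes (rows, by role and ordered by difference) on a log axis, with PU.1 ki/ki arrays in red, wild-type arrays in blue, and a marker shape for each replicate number. In Ifi35, Parp14, Ifit1, Irf2 and Irf7, among others, all red markers lie right of all blue ones, while in the antigen-processing rows the colours mix.

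The sensors all read higher in PU.1 ki/ki (50.6% of all genes did), with overlap between the groups in each. Their median difference was 1.23 (0.73 to 2.06). Ddx58, the RNA sensor RIG-I, read 780, 397 and 496 in PU.1 ki/ki against 455, 86 and 117 in wild type (1.68 ± 0.71 SE, limma adjusted p = 0.614). Wild-type replicate 1 lay within the PU.1 ki/ki range and replicates 2 and 3 far below it. Dhx58, the RIG-I-like regulator LGP2, read 276, 421 and 217 against 43, 21 and 362 (2.06 ± 1.11, adjusted p = 0.663). Here wild-type replicate 3 was the bright one, and the wild-type values spanned more than the difference. Ifih1, the sensor MDA5 of long double-stranded RNA, read 425, 550 and 771 against 441, 453 and 175 (0.79 ± 0.47). Trim25, a ubiquitin ligase that activates RIG-I, read 2526, 2433 and 3734 against 1933, 2469 and 1063 (0.73 ± 0.38). In both of these wild-type replicate 3 was the lowest array. Against wild-type replicate 1 alone, where no spread between wild-type arrays remains, the sensor median was 0.46 and Ddx58 differed by 0.23, Ifih1 by 0.36, Trim25 by 0.56 and Dhx58 by 2.74. With the mean of all probe sets of a gene the sensor median was 0.76.

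On the brightest probe set of each, the receptor chains overlapped between the genotypes. Ifnar2, the chain of the type I receptor that binds interferon most tightly, read 1492, 1341 and 1172 in PU.1 ki/ki against 792, 1467 and 436 in wild type (0.74 ± 0.47, adjusted p = 0.695). Its partner Ifnar1 read 181, 285 and 260 against 217, 617 and 322 (-0.56 ± 0.44), so that the 2 chains pointed in opposite directions on these probe sets. On its other, dimmer probe set Ifnar1 read 170, 60 and 21 against 16, 31 and 33 (1.21), with overlap. Ifngr1, the ligand-binding chain for type II interferon, read 662, 291 and 667 against 638, 255 and 215 (0.62 ± 0.57). Each of the 3 overlapped between groups, with 95% intervals from -0.46 to 1.93 for Ifnar2, -1.68 to 0.56 for Ifnar1 and -0.82 to 2.07 for Ifngr1. Their median, 0.62, was 0.30 without wild-type replicate 3, and against wild-type replicate 1 alone Ifngr1 differed by -0.34 and Ifnar1 by 0.13.

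Among the transcription factors Irf1, Irf2 and Irf7 were higher without overlap (6.44% of all genes were), and Irf8, Irf9 and Stat2 overlapped. Irf2, a repressor that competes with Irf1 for interferon-responsive promoters, read 593, 500 and 330 in PU.1 ki/ki against 30, 204 and 36 in wild type, a 7.48-fold difference (2.90 ± 0.81, limma unadjusted p = 0.0153, adjusted p = 0.512). Its brightest wild-type array was replicate 2, below every PU.1 ki/ki array, and replicate 1 was the dimmest. Irf7, which amplifies type I interferon production, read 83, 93 and 71 against 45, 27 and 16, or 2.96-fold (1.57 ± 0.39, unadjusted p = 0.0103, adjusted p = 0.508). The wild-type arrays spread widely and all lay under the lowest PU.1 ki/ki value. Irf1, an activator of both interferon types' targets, read 680, 504 and 666 against 500, 288 and 281, or 1.78-fold (0.83 ± 0.29, unadjusted p = 0.0343, adjusted p = 0.579). Here PU.1 ki/ki replicate 2 and wild-type replicate 1 were only 4 intensity units apart, and against wild-type replicate 1 alone the difference was 0.29. Stat2 and Irf9, which act together downstream of type I interferon, overlapped between groups. Stat2 read 238, 125 and 239 against 136, 224 and 59 (0.66 ± 0.57). Irf9 read 136, 202 and 247 against 240, 255 and 174 (-0.22 ± 0.29). Irf8, which pairs with PU.1 on myeloid genes, read 50, 108 and 73 against 172, 34 and 133 (-0.33 ± 0.70), with wild-type arrays at both extremes. The median of the 6 factors was 0.74, and 0.41 without wild-type replicate 3.

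Antiviral effectors were higher in 17 of 17 (50.6% of all genes), a count of 15 after centring or quantile normalization, which turned Mx2 and Oas1a. Their median difference was 0.68, and 0.43 without wild-type replicate 2. The groups did not overlap in 4 of them, all higher (6.44% of all genes). Ifit1, which binds foreign RNA lacking the host cap modification, read 586, 395 and 441 in PU.1 ki/ki against 108, 234 and 115 in wild type, 3.26-fold higher (1.70 ± 0.36, unadjusted p = 0.00522, adjusted p = 0.463). Its wild-type replicate 1 was the lowest of all arrays, and its unadjusted p stayed under 0.05 with any single array left out. Oas3, an oligoadenylate synthetase that activates the nuclease RNase L, read 281, 807 and 288 against 37, 69 and 149, or 5.49-fold (2.46 ± 0.68, unadjusted p = 0.0152). PU.1 ki/ki replicate 2 was far brighter than its 2 partners, and the other 2 still exceeded every wild-type array. Gbp3, a guanylate-binding protein that attacks pathogen compartments, read 219, 284 and 370 against 155, 56 and 21 (2.30 ± 0.76, unadjusted p = 0.0282). The dimmest arrays were wild-type replicates 2 and 3, and against replicate 1 alone it differed by 0.87. Cmpk2, a mitochondrial nucleotide kinase induced by interferon, read 80, 126 and 135 against 60, 42 and 46 (1.17 ± 0.27, unadjusted p = 0.00707, adjusted p = 0.482).

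The other 13 antiviral effectors overlapped between groups, with differences from 0.05 to 0.95. The 3 brightest of the 17 were Eif2ak2, Oas1a and Oasl2. Eif2ak2, the kinase PKR that halts translation, read 1219, 1015 and 1219 against 1494, 877 and 669 (0.26 ± 0.33), and its highest and its lowest values were both wild type. Oas1a, another oligoadenylate synthetase, read 552, 754 and 813 against 531, 738 and 698 (0.10 ± 0.22, 95% interval -0.47 to 0.68), nearly the same range in each group. Oasl2 read 679, 853 and 618 against 998, 622 and 276 (0.35 ± 0.51), with wild-type arrays at both extremes. The remaining ones, in order, were Rsad2 (0.95), Ifit3 (0.88), Mx1 (0.77), Oasl1 (0.74), Gbp2 (0.68), Ifit2 (0.61), the tetherin gene Bst2 (0.41), Oas2 (0.37), the exonuclease gene Isg20 (0.25) and Mx2 (0.05). Mx1 was close to the table's minimum, at 19 to 46 in PU.1 ki/ki and 10 to 25 in wild type. Several of these genes lie side by side: Oas2 and Oas3 are adjacent, as are Ifit2 and Ifit3, Oasl1 and Oasl2, and Rsad2 and Cmpk2, while 1 protein-coding gene separates Gbp2 from Gbp3. In the pairs Oas2 and Oas3, Gbp2 and Gbp3, and Rsad2 and Cmpk2, the groups overlapped in the first and not in the second gene, and the difference between the 2 genes was not tested.

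Among genes of conjugation and regulation the groups did not overlap in 4 of 6 measured, all higher (6.44% of all genes), and the median was 1.30. Ifi35, which binds the related protein Nmi, read 1571, 1349 and 1301 in PU.1 ki/ki against 523, 615 and 641 in wild type, or 2.37-fold (1.25 ± 0.15, 95% interval 0.86 to 1.63, unadjusted p = 0.000382, adjusted p = 0.400). The arrays within each group lay close together, wild-type replicates 2 and 3 included, and leaving out single arrays gave 1.16 to 1.30. Xaf1, an antagonist of the apoptosis inhibitor XIAP, read 1204, 1059 and 560 against 428, 90 and 57, or 6.81-fold (2.77 ± 0.84, unadjusted p = 0.0209). Against wild-type replicate 1 alone it differed by 1.06, since replicates 2 and 3 were the dim ones. Parp14, an ADP-ribosyltransferase, read 610, 598 and 530 against 267, 331 and 127 (1.36 ± 0.39, unadjusted p = 0.0165). The PU.1 ki/ki arrays were nearly alike, and each was well above the brightest wild-type array. Parp9, which acts with the ubiquitin ligase Dtx3l and has 1 protein-coding gene between it and Parp14, read 537, 609 and 649 against 365, 63 and 524 (1.37 ± 0.84, unadjusted p = 0.163). Its groups were apart by only 13 units, with wild-type replicate 2 far below the rest. Trim21, a cytosolic antibody receptor, overlapped through wild-type replicate 2 (604, 516 and 528 against 209, 655 and 102, 1.18 ± 0.70). Usp18, which strips ISG15 from proteins and damps signalling at Ifnar2, was the only lower gene of this role, at 62, 68 and 88 against 80, 91 and 165 (-0.56 ± 0.33, adjusted p = 0.677), with PU.1 ki/ki replicate 3 inside the wild-type range.

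Antigen-processing members were near equal in the 2 groups, with a median difference of -0.05, 2 higher and 3 lower. Psmb8, an inducible catalytic subunit of the immunoproteasome, read 2212, 3447 and 2682 in PU.1 ki/ki against 2086, 2668 and 4106 in wild type (-0.05 ± 0.32, 95% interval -0.87 to 0.76). Psmb9, another such subunit, read 1697, 2177 and 1648 against 1273, 1872 and 2054 (0.10 ± 0.24, interval -0.51 to 0.72). Tap1, a chain of the peptide transporter into the endoplasmic reticulum, read 654, 1295 and 851 against 857, 663 and 498 (0.45 ± 0.34). In none of these did the arrays sort by genotype, and the intervals do not reach a 4-fold difference. Psmb10 differed by -0.08 and Tap2, the other transporter chain, by -0.33. Tap1, Psmb8, Psmb9 and Tap2 are neighbours with no protein-coding gene between them. Against wild-type replicate 1 alone all 5 were higher, with a median of 0.37, since that array was the lowest in Psmb8, Psmb9 and Psmb10.

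**Figure D3:**
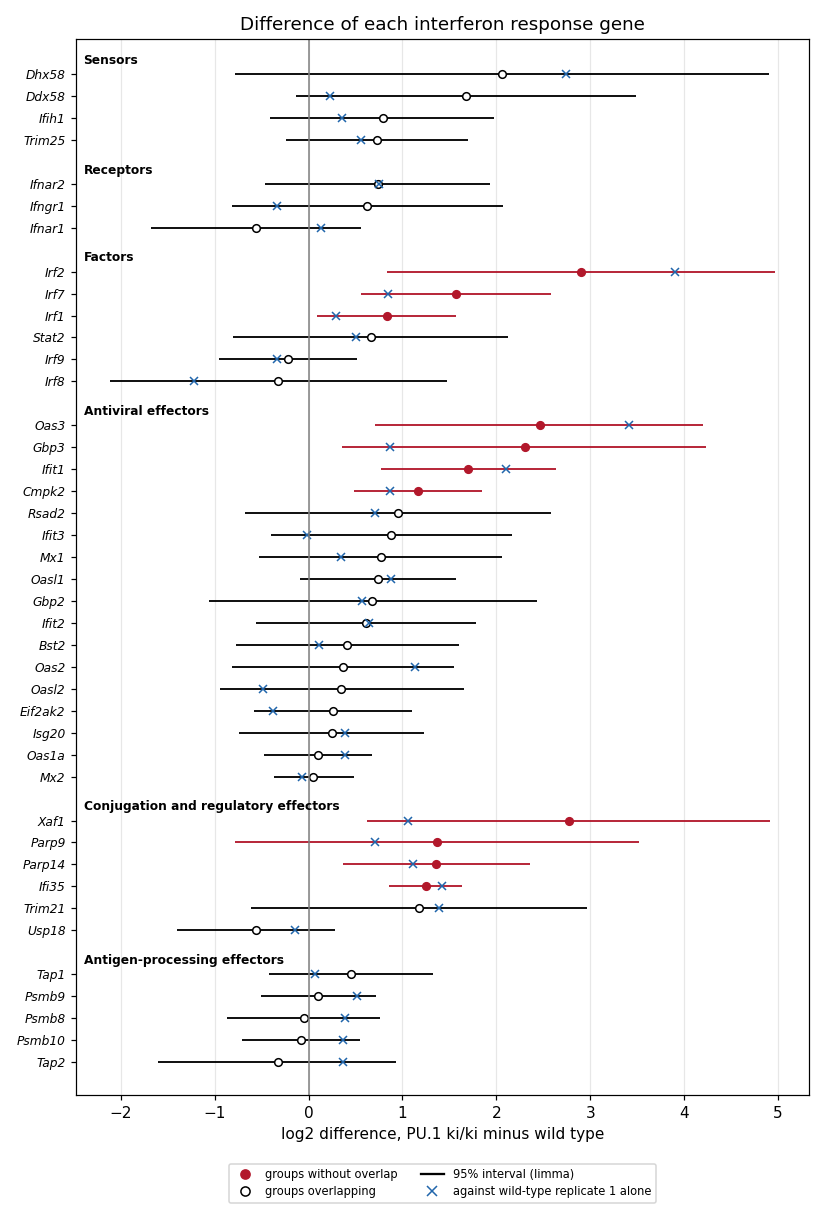
Log2 difference of each member (PU.1 ki/ki minus wild type) with its 95% limma interval, filled red where the groups did not overlap and open where they did, and a blue cross for the difference against wild-type replicate 1 alone. The crosses of Ddx58, Gbp3 and Xaf1 lie well left of their circles, at 0.23, 0.87 and 1.06, while those of Ifi35, Ifit1, Oas3 and Irf2 lie right of theirs, at 1.42, 2.10, 3.41 and 3.90.

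Low values fell mostly on wild-type arrays. Of the 41 members 35 were lowest on a wild-type array (85.4%, against 60.4% of all genes), 18 of them on replicate 3, 9 on replicate 1 and 8 on replicate 2. The highest value was on a PU.1 ki/ki array in 29 (70.7%, against 35.4%). Relative to each gene's mean, the members' medians were 0.30, 0.44 and 0.51 in PU.1 ki/ki and -0.23, -0.14 and -0.65 in wild type. A value at least 4-fold less than the other 5 arrays' median, where that median was at least 128, occurred in 3 of 32 members on wild-type replicate 1 (9.38%), 5 of 33 on replicate 2 and 5 of 33 on replicate 3 (15.2% each), and in none on a PU.1 ki/ki array. Over all genes these shares were 2.19%, 10.4% and 11.7% on the wild-type arrays. Of the 11 members without overlap, 6 had such a value, namely Irf2, Oas3, Gbp3, Parp9, Parp14 and Xaf1, and the other 5, Irf1, Irf7, Ifit1, Cmpk2 and Ifi35, had none. Against wild-type replicate 1 alone all 11 were higher, by 0.29 to 3.90, and the median of all members was 0.50. All 3 PU.1 ki/ki arrays lay above that array in 21 of the 41 members (25.3% of all genes) and below it in 3 (28.7% of all genes). When each array was left out in turn, all 11 stayed higher, and Irf7, Ifit1, Oas3, Cmpk2 and Ifi35 kept an unadjusted p under 0.05 in every fit. This holds for the brightest probe set, and the groups overlapped on the other probe sets of Cmpk2 and Ifi35. The members' SD of log2 intensity was larger in wild type than in PU.1 ki/ki for 33 of 41 (80.5%, against 74.4% of all genes), with medians of 0.74 and 0.38.

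**Figure D4:**
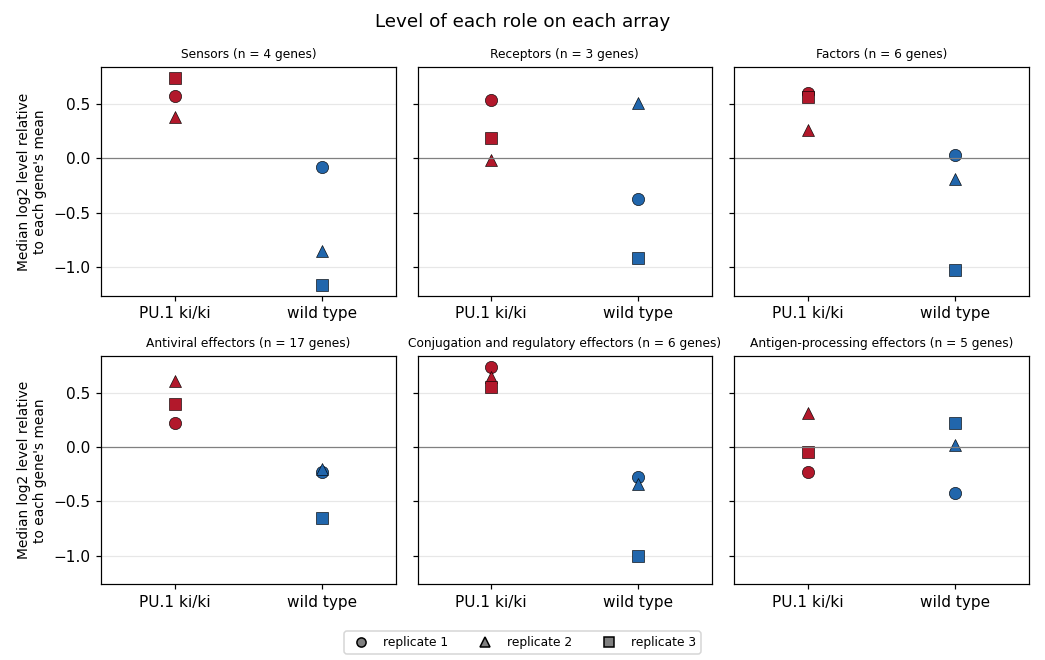
Median log2 level of each role's measured members, relative to each gene's mean over the 6 arrays (vertical), on each PU.1 ki/ki array (red) and wild-type array (blue), with a marker shape for each replicate number. The groups are apart in sensors, factors, antiviral effectors and conjugation and regulatory effectors, and they overlap in receptors and antigen-processing effectors.

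Sensors stood at 0.57, 0.38 and 0.74 in PU.1 ki/ki against -0.08, -0.85 and -1.17 in wild type, and antiviral effectors at 0.22, 0.61 and 0.40 against -0.23, -0.20 and -0.65. Antigen-processing effectors did not follow, at -0.23, 0.31 and -0.05 against -0.42, 0.02 and 0.22. Receptors overlapped through wild-type replicate 2, at 0.51.

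A second reading came from the other probe sets of 17 members. Of 26 such probe sets 18 had the sign of the one used, 7 had the opposite sign and 1 read 10 on all arrays. In limma 8 had an unadjusted p under 0.05, all higher, against 4.39% of all genes in that direction and 4.27% in the other. Those shares are over the brightest probe set of each gene, and none was taken over the dimmer ones. The other probe sets were read on the same arrays, and are not independent of the first reading. Rsad2, which encodes the antiviral enzyme viperin, overlapped on its brightest probe set at 258, 943 and 627 against 327, 424 and 151. On another it read 89, 147 and 93 against 24, 24 and 10, without overlap (2.50, unadjusted p = 0.00176). Eif2ak2 likewise read 1621, 1029 and 872 against 288, 337 and 741 on a somewhat dimmer probe set (1.44), without overlap. Ifnar2 overlapped on its brightest probe set and read 55, 54 and 160 against 17, 23 and 24 on its dimmest (1.84, unadjusted p = 0.0123), and with the mean of its 3 probe sets it differed by 1.10 (unadjusted p = 0.0287, limma adjusted p = 0.525). Irf8 changed direction with the probe set, at 113, 59 and 101 against 56, 15 and 21 on its other one (1.71), where the groups did not overlap. A probe set of Trim25 separated the groups at 494, 419 and 511 against 218, 204 and 75 (1.65), while another differed by -0.16. Ifi35 differed by 1.51 and by -0.05 on its other 2 probe sets, with overlap on both, so the separation on its brightest was not shared by them. Xaf1 differed by 2.36 on its other probe set, with overlap through wild-type replicate 1. Cmpk2 read 57, 97 and 71 against 83, 13 and 32 on its other one (1.13), and Parp14 271, 101 and 155 against 116, 56 and 64 (1.11), both with overlap. Thus every member without overlap that had a further probe set overlapped there.

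Other genes of the pathway, from 4 lists with 82 of 97 entries measured, were also compared. Among 47 further interferon-stimulated genes on the arrays, 39 read higher (50.6% of all genes) and 8 lower (47.8%), with a median of 0.67. The groups did not overlap in 14 of them, all higher (6.44% of all genes), and 12, all higher, had an unadjusted p under 0.05 (4.39% of all genes). Tor3a read 538, 344 and 233 in PU.1 ki/ki against 102, 160 and 120 in wild type (1.48), and Nmi, the partner of Ifi35, 503, 651 and 771 against 272, 293 and 122 (1.56). The lower ones with the lowest p, were dim: Cxcl9, a chemokine gene, read 33, 34 and 26 against 35, 40 and 32 (-0.20), and Ifi204 read 10 on each PU.1 ki/ki array against 10, 11 and 13 (-0.16). Of 20 kinases, STATs, adaptors and other factors, 14 were higher (70%, against 50.6% of all genes, median 0.20). Against 4.27% of all genes in that direction, 3, all lower, had an unadjusted p under 0.05 in limma. Those were Mavs, the adaptor through which RIG-I and MDA5 signal (82, 68 and 82 against 150, 302 and 178, -1.37, adjusted p = 0.463), Socs1, an inhibitor of Janus kinases (35, 40 and 42 against 52, 77 and 60, -0.66), and Socs3, named after its values were seen (13, 31 and 12 against 820, 73 and 60, -3.10). The kinase Jak1 read 1455, 1315 and 2143 against 672, 1121 and 182 (1.63), and the endosomal RNA sensor Tlr3 read 224, 225 and 89 against 35, 59 and 123 (1.36). MHC class I presentation genes, with a median mean intensity of 3044, were higher in 8 of 9 (median 0.46). Of all genes 50.6% were higher, and 62.4% of those in the upper quartile of intensity. Against 6.44% of all genes and 8.91% in that quartile, the groups did not overlap in 3 of the 9, all higher. Of these Tapbp, the tapasin gene, read 2543, 3259 and 2079 against 1807, 1684 and 1533 (0.63), and H2-D1, a class I heavy chain, 3379, 4356 and 4198 against 2687, 2920 and 1264 (0.88). The third was Nlrc5, an activator of class I genes, named after its values were seen (1.87). B2m, the class I light chain, read 9456, 9674 and 10134 against 8385, 11368 and 10776 (-0.05). Of the interferon genes themselves 6 of 10 were measured, with a median mean intensity of 19.2. Ifna1 had the brightest at 171, 134 and 238 against 189, 66 and 72 (0.86). Ifna5 was lower without overlap, at 68, 69 and 41 against 79, 72 and 87 (-0.45, unadjusted p = 0.131). Ifna4 was higher without overlap but near the minimum, at 12 on each PU.1 ki/ki array against 11, 10 and 10 (0.20), and Ifna2 read 10 on all arrays but wild-type replicate 3, at 21. In this near-identical gene family the identity of a probe set is uncertain.

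Markers of other cell types were set beside these values. The sum over 10 markers of plasmacytoid dendritic cells, a strong source of type I interferon, was 2867 to 4018 in PU.1 ki/ki and 2722 to 3761 in wild type, with Bcl11a and Tcf4 its brightest members. Of the 10 markers 7 were lower in PU.1 ki/ki (median -0.27), among them Ccr9 (-0.94, unadjusted p = 0.00961) and Ly6d (-1.36, unadjusted p = 0.00993) without overlap, and Siglech, a defining one, read 70 to 112 and 92 to 108. Macrophage and monocyte markers (10 of 11 measured) summed to 786 to 1665 and 350 to 897, with 5 of the 10 under a mean of 50. Here 8 of 10 were higher (median 0.41), and the complement genes C1qb, at 567, 119 and 73 against 10 on each wild-type array (unadjusted p = 0.00394), and C1qc (1.71) did not overlap. Conventional dendritic cell markers (9 of 10) summed to 2818 to 3735 and 1574 to 2441, with 4 of the 9 under a mean of 50. The brightest were the MHC class II genes H2-Aa (0.72) and H2-Ab1 (0.20), both with overlap, and Cd74. In all, 7 of the 9 were higher (median 0.40). Of these Cd74, the MHC class II invariant chain, read 1211, 1447 and 1208 against 397, 295 and 642 (1.60, unadjusted p = 0.00372), while Xcr1, a defining marker, read 12 to 19 on all arrays. Erythroid markers (6 of 8) summed to 4700 to 6637 and 2461 to 4009, of which Car2 alone read 4132, 4230 and 5554 against 2466, 3551 and 1304. Of the 6 markers 3 were higher and 3 lower. Car2 (1.03) and Klf1 (2.57) were higher without overlap, and Hba-a1 (-0.69) was lower without overlap. The sum of T and NK cell markers (9 of 10) was lower in PU.1 ki/ki, at 384 to 494 against 520 to 780. Of these 9 markers 7 were lower and 2 higher, Cd4 (1.26) and Cd3d (0.23), and 6 had a mean under 50. Nkg7, the brightest of them, read 168, 194 and 98 against 481, 283 and 170 (-0.95), with overlap. The sums of B cell (7 of 8), neutrophil (7 of 8) and megakaryocyte markers (7 of 8) overlapped between the groups, at 1593 to 1648 and 1006 to 2064, 13764 to 20560 and 17826 to 23721, and 1989 to 5819 and 1492 to 2145. Their single markers still leaned. In PU.1 ki/ki 6 of 7 B cell markers (median -0.44) and all 7 neutrophil markers (-0.38) were lower. Megakaryocyte markers were higher in 6 of 7 (median 0.71). Without overlap, Cd79a and S100a8 were lower and Vwf higher. Over all genes 50.6% were higher and 47.8% lower, and 6.44% and 6.36% were so without overlap. Conventional dendritic, erythroid and T and NK sums thus differed without overlap, as did C1qb and C1qc among macrophage markers. Such a sum weighs its brightest markers most, and the part of these cell types in the result was not tested. On bulk RNA of sorted cells, more cells with a transcript and more RNA per cell cannot be told apart.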

How the data were processed

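The deposited table gives 1 intensity per probe set and array, on a linear scale from 10 to 27574. The authors made these intensities with RMA, per the submitters' processing notes, and its version, the conversion from the log scale and the floor of 10 are not given in the sources used here. Groups and replicate numbers came from the sample titles, and a description of embryos on each sample was set aside. Of 45101 entries 64 control probe sets were left out. The platform annotation gave 1 symbol to 34945 of the other 45037, several genes to 932 and none to 9160. For lists the brightest probe set of each gene was used. limma 3.58.1 (lmFit and eBayes, R 4.3.3) was fitted to log2(intensity + 1) of all probe sets with genotype as the only term, with Benjamini-Hochberg adjustment over all of them at 0.05. The pseudocount understates differences of dim genes. The number of arrays limits the precision.

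Members and lists were chosen with earlier results of these data known. Every member could be named. Values on each array are given for members without overlap or with an unadjusted p under 0.05, all sensors, receptors and factors and the 3 brightest of each effector role, and of other pathway lists the 2 higher and 2 lower genes with the lowest p. Members beyond that rule, other probe sets and single cell type markers were picked after their values were seen. Promoters and gene neighbours are from RefSeq (GRCm38.p6), with 1685 of 1685 overlapping windows on opposite strands equal after turning. Steps were tested on simulated data. Figures used matplotlib 3.10.9. Alternatives were a quantile normalization, median centring, a pseudocount of 16, no dim probe sets, array weights, a trended robust prior, a block for the replicate number, left-out arrays, wild-type replicate 1 alone, the mean of all probe sets, the probe set brightest in wild type, and an unmoderated test. Same-numbered arrays did not deviate together (correlations of -0.0168 to 0.0207).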

Additional observations from a re-analysis of the deposited data

How the results depend on the processing

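No alternative gave a member an adjusted p under 0.05. With the replicate number as a block, which does not pair the arrays, 12 members had an unadjusted p under 0.05 in place of 10. With single arrays left out this count was 6 (without PU.1 ki/ki replicate 1) to 13, the count without overlap 12 to 18 (fewer arrays overlap less often), the median of all members 0.46 (without wild-type replicate 3) to 0.78 and that of antiviral effectors 0.43 (without wild-type replicate 2) to 0.74. Against wild-type replicate 1 alone 24 members did not overlap, 21 higher and 3 lower (25.3% and 28.7% of all genes), with medians of 0.50 over all members, 0.46 for sensors and 0.37 for antigen-processing effectors, and Ifnar1 (0.13), Ifngr1 (-0.34), Eif2ak2 (-0.38), Oasl2 (-0.49), Psmb8 (0.39), Ifit3 (-0.02), Mx2 (-0.07), Psmb10 (0.37) and Tap2 (0.37) changed sign. The mean of all probe sets gave a sensor median of 0.76 and turned Ifnar1 (0.33), Irf8 (0.69) and Psmb8 (0.33). Centring turned Oas1a (-0.01) and brought Psmb9 to 0.00, quantile normalization turned Oas1a (-0.02), and array weights turned Psmb8 (0.04). With single arrays left out Irf8 lay at -1.03 to 0.12, Irf9 at -0.41 to 0.02, Oas1a at -0.04 to 0.27, Oasl2 at -0.15 to 0.78, Psmb8 at -0.28 to 0.21 and Psmb9 at -0.10 to 0.24. The cause was not tested. Of 432 differences of printed members under alternatives 411 kept their sign. The block, the trended prior and leaving out dim probe sets cannot change a difference, so part of that count was fixed in advance.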
